A study of Mus musculus with 2 samples.

Results

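The genes described here encode the machinery of DNA replication and S phase: 50 genes, chosen by name, for the steps from origin licensing to the supply of deoxynucleotides (dNTPs). A gene was measured where a probe set of the arrays is annotated to that gene and no other. This held for 49 of the 50, out of 17874 genes named in the table. The other, Chaf1a, has no value here and enters only the counts of promoters. The samples were colony-forming unit erythroid (CFU-E) cells, fetal progenitors of red cells, sorted by removal of other lineages from pools of 40 to 50 livers of BALB/c embryos at gestational day 13.5. Per the protocol all embryos lacked both copies of the erythropoietin receptor gene (EpoR-/-), so neither sample had an intact receptor, whereas the genotype label names Epo. Cells were kept for 1 h without growth factors and were then lysed (0 h, 1 array) or held in Panserin medium until 3 h (3 h, 1 array). The 3 h sample carries a treatment label of supplemental growth factors, while the protocol says that none were added, and the strain is labelled on the 0 h sample only. The comparison shows how transcripts of the replication machinery stood after 3 h in culture. If the protocol's genotype holds, these are cells that cannot answer erythropoietin. With a single array per time there is no error, test or replicate check, and it is the number of arrays that limits the precision.

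As background, replication starts in G1, when the origin recognition complex, CDC6 and CDT1 load the ring of MCM proteins onto DNA. CDC7 and cyclin E kinases then recruit CDC45 and the GINS complex, which complete the helicase, and polymerases alpha, delta and epsilon copy the strands with the sliding clamp PCNA. Many of these genes are targets of E2F transcription factors, and CFU-E cells normally divide fast under erythropoietin.

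The promoters below are shown because they set 4 members beyond 1.2-fold (Dtl, Pola1, Cdc25a and Clspn) beside 2 that differed less (Mcm5 and Mcm6). RefSeq sequences (build GRCm38.p6) were matched by symbol for 41 of the 50 genes, with 48 promoters in all, and the 250 bases before the start were searched on both strands. Capitals mark TTCCCGC and TTGGCGC, 2 forms of the E2F site, and CCAAT, the NF-Y site, or their reverse complements, and in Cdc25a the 2 strands of TTGGCGC overlap.
Dtl: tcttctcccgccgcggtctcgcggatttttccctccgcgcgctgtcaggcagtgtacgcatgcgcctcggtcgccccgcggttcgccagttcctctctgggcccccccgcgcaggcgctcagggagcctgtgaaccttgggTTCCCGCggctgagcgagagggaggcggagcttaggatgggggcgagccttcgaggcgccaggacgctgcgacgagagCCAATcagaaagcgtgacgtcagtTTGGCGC
Pola1: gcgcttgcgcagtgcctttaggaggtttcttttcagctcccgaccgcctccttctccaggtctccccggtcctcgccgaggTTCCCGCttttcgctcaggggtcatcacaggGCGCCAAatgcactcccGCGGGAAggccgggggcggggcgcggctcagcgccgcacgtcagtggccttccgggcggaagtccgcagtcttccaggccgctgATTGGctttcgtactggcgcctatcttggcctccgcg
Cdc25a: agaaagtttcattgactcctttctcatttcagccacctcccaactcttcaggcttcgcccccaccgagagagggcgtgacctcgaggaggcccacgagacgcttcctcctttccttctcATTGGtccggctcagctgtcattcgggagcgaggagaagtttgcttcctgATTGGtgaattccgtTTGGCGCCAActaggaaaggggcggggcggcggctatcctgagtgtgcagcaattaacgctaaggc
Mcm5: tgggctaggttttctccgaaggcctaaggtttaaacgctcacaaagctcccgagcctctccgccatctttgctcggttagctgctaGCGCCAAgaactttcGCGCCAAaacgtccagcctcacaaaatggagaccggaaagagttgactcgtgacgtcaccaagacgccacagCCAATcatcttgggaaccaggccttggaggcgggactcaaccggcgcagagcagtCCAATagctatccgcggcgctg
Mcm6: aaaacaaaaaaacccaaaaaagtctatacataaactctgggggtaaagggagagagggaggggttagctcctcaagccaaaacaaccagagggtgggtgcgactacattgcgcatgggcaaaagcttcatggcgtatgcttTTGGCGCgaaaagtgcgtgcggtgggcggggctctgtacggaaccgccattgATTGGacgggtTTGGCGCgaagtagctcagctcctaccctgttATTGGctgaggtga
Clspn: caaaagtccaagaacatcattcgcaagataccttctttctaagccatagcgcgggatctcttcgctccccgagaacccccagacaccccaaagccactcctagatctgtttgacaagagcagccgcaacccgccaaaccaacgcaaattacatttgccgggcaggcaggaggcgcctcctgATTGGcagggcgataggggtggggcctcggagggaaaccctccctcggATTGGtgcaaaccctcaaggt
They lie at chr1:191575545-191575794 (Dtl, minus strand), chrX:93632156-93632405 (Pola1, minus), chr9:109875329-109875578 (Cdc25a, plus), chr8:75109259-75109508 (Mcm5, plus), chr1:128359706-128359955 (Mcm6, minus) and chr4:126556730-126556979 (Clspn, plus). Dtl holds 1 match to each E2F form, and its match to TTGGCGC ends at the base before the start. Mcm5 and Mcm6 each hold 2 matches to TTGGCGC, and Clspn holds CCAAT but neither E2F form. The promoters shown include every member promoter with TTGGCGC, 5 of 48 (10.4%), so they do not stand for the members in general. Tk1, a lower member beyond 1.2-fold that is not printed, held neither E2F form and no CCAAT. Ccne2, also beyond 1.2-fold, had no promoter sequence.

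Transcripts of the replication machinery differed little between 0 h and 3 h. The values are log2 expression, so a difference of 1 is 2-fold, and differences are 3 h minus 0 h. Counts cover genes with at least 1 of both values at or above 5.70, a floor set at the median over the whole table, and 48 of the 49 measured members passed it. Their median difference was 0.07, beside 0.0094 for all 9284 genes at or above the floor. No member was at least 1.5-fold higher, against 6.94% of all genes, and 1 was at least 1.5-fold lower, against 4.80%. By any amount 29 of 48 were higher (60.4%) and 19 lower, beside 51.5% of all genes higher. After removal of an intensity trend 32 of 48 were higher, and after centring on the median of all genes 28. In a sample of many cells, fewer cells of a type and less RNA per cell cannot be told apart.

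The members lay closer to 0 than genes did in general. Within 1.2-fold were 42 of 48 (87.5%), beside 58.0% of all genes at or above the floor. This cut was not among the planned ones, which were 1.5-fold and 2-fold. The spread of the differences (robust SD, from the median absolute deviation) was 0.13 for the members and 0.31 for all genes. Probe sets of the members were also brighter, with a median log2 value of 9.85 at 0 h beside 7.86 for all counted genes, and the robust SD of all genes with a mean of at least 8 was 0.27. Above that bound, which was chosen after the values were seen, 87.8% of 41 members and 63.2% of 4362 genes lay within 1.2-fold. The members were still brighter there, with a median at 0 h of 10.04 beside 9.24, so the bound does not match brightness. The 6 members beyond 1.2-fold were Dtl, Tk1, Pola1 and Cdc25a, which were lower, and Ccne2 and Clspn, which were higher. Quantile normalization, trend removal and centring left the direction of each of these 6 as it was.

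**Figure D1:**
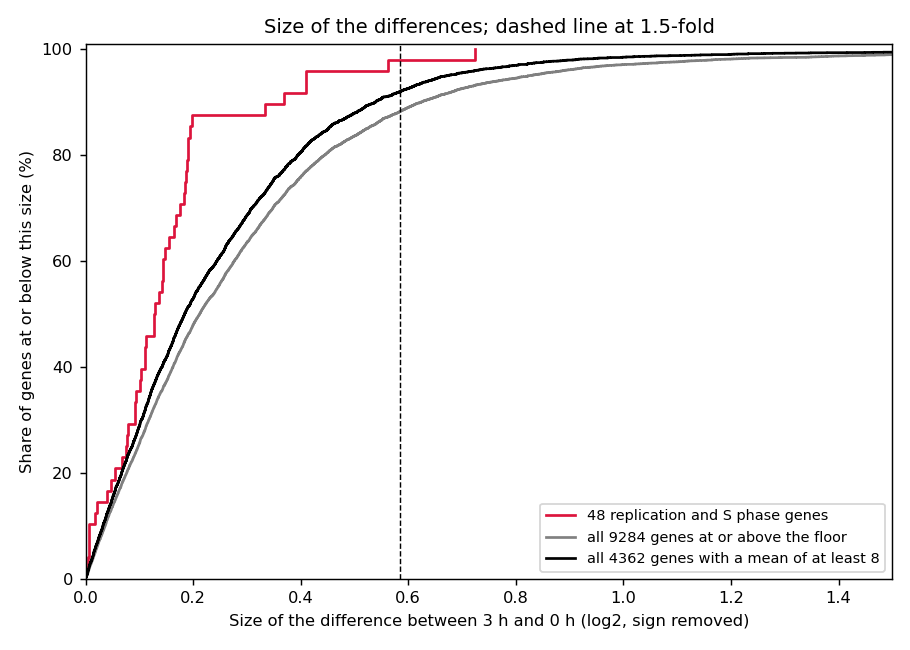
Share of genes (y axis, %) whose difference between 3 h and 0 h is at or below the size on the x axis (log2, sign removed; drawn to 1.5), for 48 replication genes (red), all 9284 genes at or above the floor (grey) and 4362 genes with a mean of at least 8 (black). The red line reaches 87.5% at 1.2-fold, above both other lines.

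**Figure D2:**
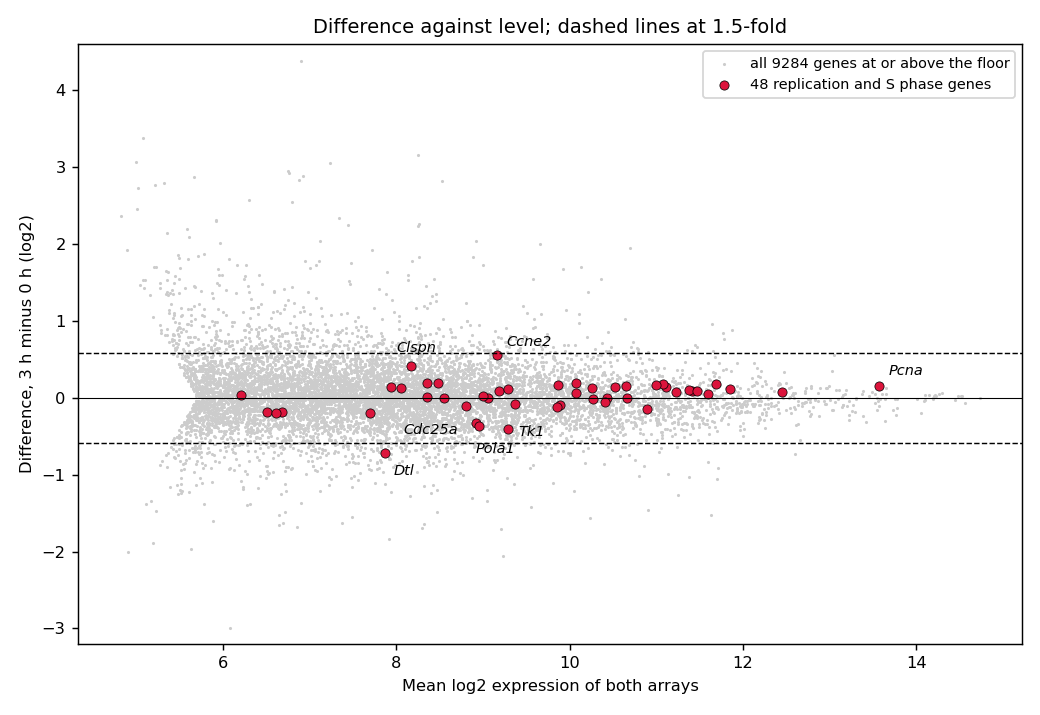
Difference (3 h minus 0 h, log2; y axis) against mean log2 expression of both arrays (x axis) for 48 replication genes (red) and all 9284 genes at or above the floor (grey), with dashed lines at 1.5-fold. Only Dtl among the red points lies beyond a dashed line.

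Among genes that control the entry into S phase and the firing of origins, the E-type cyclins did not move alike. Ccne2, a cyclin that activates CDK2, had values of 8.88 at 0 h and 9.45 at 3 h, a difference of 0.56 or 1.48-fold, the highest of all members and just short of 1.5-fold. Its paralog Ccne1 was at 8.56 and 8.55, so the arrays showed almost the same value. Cdc25a, the phosphatase that activates cyclin-dependent kinases at the G1/S boundary, went from 9.08 to 8.75, 1.26-fold lower. The origin-firing kinase gene Cdc7 (7.87 and 8.01) and its activator Dbf4 (9.98 and 10.17) were both slightly higher, by 0.14 and 0.19. Over these 5 genes the median difference was 0.14.

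The licensing factors were nearly level. Cdt1, which brings MCM rings to origins, was at 12.41 and 12.48. Cdc6, its partner in loading, was at 11.37 and 11.46. Gmnn, which encodes geminin, the inhibitor of CDT1, was at 11.33 and 11.43. All 3 were thus higher by 0.08 to 0.10, the inhibitor as well as the loading factors. Origin recognition complex subunits went both ways. Orc1 (7.80 to 7.60) and Orc3 (6.78 to 6.59) were lower by 0.20 and 0.19, and Orc2 (9.14 to 9.23) and Orc6 (10.19 to 10.32) were higher by 0.09 and 0.13. The median of the 7 licensing genes was 0.09.

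The 6 subunits of the MCM2 to MCM7 helicase ring were all slightly higher at 3 h, beside 51.5% of all genes higher by any amount. Mcm4 had the largest difference of them, from 11.60 to 11.78 (0.18), followed by Mcm5, from 10.99 to 11.17 (0.18), and Mcm2, from 11.04 to 11.19 (0.14). Mcm6 (11.43 and 11.52), Mcm3 (10.04 and 10.11) and Mcm7 (11.58 and 11.62) were higher by 0.09, 0.07 and 0.05. The 6 were higher under quantile normalization, trend removal and centring too, with medians of 0.11 to 0.18, and none reached 1.2-fold. The probe sets of Mcm2, Mcm6 and Mcm7 carry a suffix for possible matches to other genes, and those of the 3 others do not.

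The factors that turn the ring into an active helicase had differences of like size. Cdc45 went from 8.26 to 8.45. Of the GINS subunits, Gins1 (9.78 to 9.95), Gins4 (9.24 to 9.35) and Gins3 (6.18 to 6.23) were higher by 0.16, 0.11 and 0.04, and Gins2 (8.87 to 8.75) was lower by 0.11. Mcm10, an initiation factor outside the ring, was level at 9.07 and 9.06. In the whole helicase group 10 of 12 were higher (9 after quantile normalization), beside 51.5% of all genes. The median was 0.10, beside 0.0094 for all genes.

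Polymerase genes were split. Pola1, the catalytic subunit of polymerase alpha, which starts each DNA strand, went from 9.14 to 8.77 and was 1.29-fold lower. Its accessory subunit Pola2 was at 8.99 and 9.01, and the primase subunits Prim1 (10.46 to 10.59) and Prim2 (9.94 to 9.84) differed by 0.14 and -0.10. The 3 other subunits of this complex thus lay within 0.14 of their values at 0 h. Pole, the catalytic subunit of the leading-strand polymerase epsilon, went from 8.39 to 8.58, and Pold1, that of the lagging-strand polymerase delta, from 9.92 to 9.80. The median of the 6 was -0.04.

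The sliding clamp gene Pcna was at 13.49 and 13.65, 1.11-fold higher. Bright probes can approach saturation, so this value may understate a difference. The subunits of its loader, replication factor C, were level or slightly lower. Rfc1 (8.35 and 8.36), Rfc4 (10.67 and 10.66) and Rfc5 (10.28 and 10.26) were nearly level, and Rfc3 (9.41 to 9.33) and Rfc2 (6.60 to 6.42) differed by -0.08 and -0.18. Of the subunits of RPA, which coats single-stranded DNA, Rpa1 (10.91 to 11.08) was higher by 0.17 and Rpa2 was level (10.43 and 10.43). The median of these 8 genes was -0.0050, with 3 higher. After removal of an intensity trend 6 of the 8 were higher and after centring 2, so no direction can be given for this group. The flap endonuclease gene Fen1 (11.19 to 11.26) and the ligase gene Lig1 (10.58 to 10.72), which finish lagging-strand fragments, were higher by 0.08 and 0.15.

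dNTP supply differed from step to step. Rrm1 and Rrm2 encode the subunits of ribonucleotide reductase, which makes deoxynucleotides from ribonucleotides. Rrm1 was at 11.79 and 11.90 and Rrm2 at 10.44 and 10.39, differences of 0.11 and -0.05. Tk1, the thymidine kinase of the salvage route, went from 9.49 to 9.08 and was 1.33-fold lower, and 9.93% of all genes lay lower still. Tyms, which makes thymidylate de novo, lay under the floor at both times (4.82 and 4.24). A low value from a single probe set is no sign that the gene is silent, and its difference of -0.59 is not counted.

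Genes that rebuild chromatin behind the fork showed small differences. Chaf1b, a subunit of the histone chaperone CAF-1, went from 7.99 to 8.12. Slbp, which binds the ends of histone mRNAs, went from 6.70 to 6.51, and Uhrf1, which guides DNA methylation to new strands, from 10.96 to 10.82. These are differences of 0.13, -0.19 and -0.14.

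The largest difference of any member was that of Dtl, which encodes CDT2, the part of a ubiquitin ligase that marks CDT1 for destruction once DNA synthesis has begun. Dtl went from 8.23 at 0 h to 7.51 at 3 h, a difference of -0.72 or 1.65-fold lower, and 2.49% of all genes lay lower. Its difference ran from -0.74 to -0.72 over the alternatives tried. Both values are above the floor, but 1 probe set carries the result. Its substrate Cdt1 was level, as given above, at the level of the transcript. Clspn, the adaptor by which stalled forks activate CHK1, went the other way, from 7.97 to 8.38 (1.33-fold higher).

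**Figure D3:**
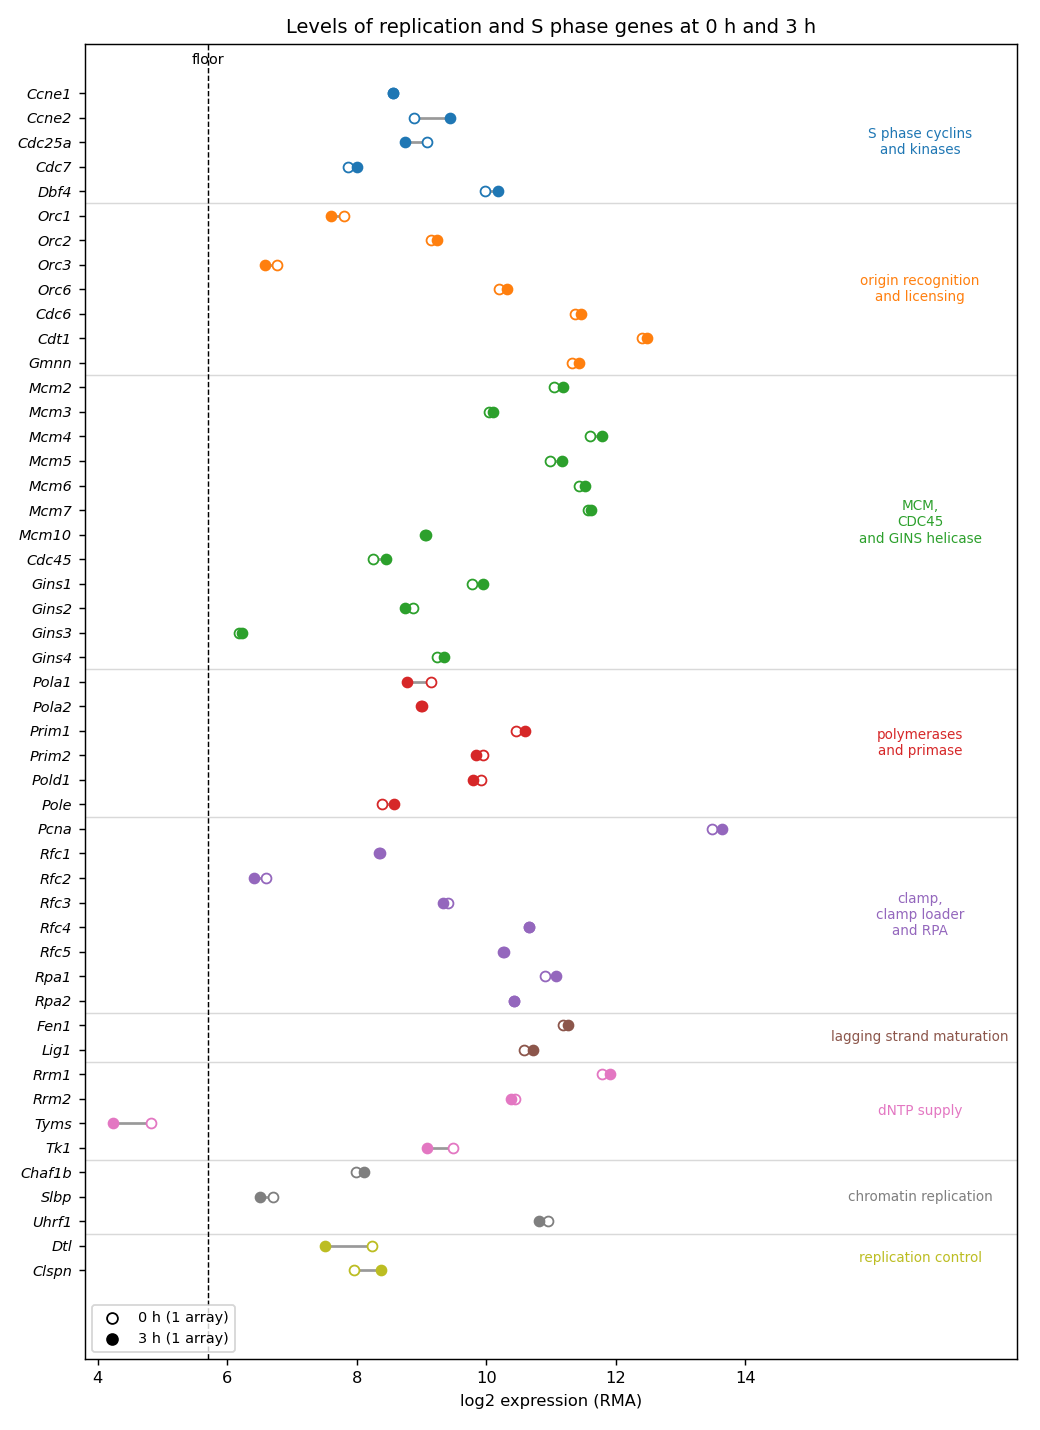
Log2 expression (x axis) of the 49 measured genes, grouped by role, at 0 h (open circles) and 3 h (filled circles), 1 array each, with the floor dashed. Most pairs of circles overlap or touch, Dtl and Ccne2 are among the pairs that stand apart, and Tyms lies below the floor.

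Related genes that are not members were described in the same way. Of 32 other replisome and origin genes counted, 19 were higher and 13 lower, with a median of 0.08, close to that of the members. None was at least 1.5-fold higher and 1 was at least 1.5-fold lower, beside 6.94% and 4.80% of all genes. That 1 was Pold2, a subunit of polymerase delta, which went from 9.14 to 8.19 (1.93-fold lower), while its partner Pold1 differed by -0.13. Mcm9 (0.53), the clamp loader gene Dscc1 (0.51) and the fork protein gene Wdhd1 (0.51) differed most upwards. Mcm9 went from 5.60 to 6.13, so it was below the floor at 0 h and counted only through its 3 h value. Of 12 other genes of nucleotide supply 5 were higher and 7 lower, with a median of -0.35. None was at least 1.5-fold higher (6.94% of all genes were) and 2 were at least 1.5-fold lower (4.80% of all genes were). The deaminase gene Dctd, which supplies dUMP for thymidylate, went from 7.78 to 6.71 (2.09-fold lower), and Shmt1, of the folate cycle, from 8.90 to 8.02 (1.84-fold lower). Cad (-0.58), which starts pyrimidine synthesis, and Dguok (-0.54) were next. Of 8 histone chaperone genes none differed by 1.5-fold, and Rbbp4 (-0.16) differed most. Of 11 genes of the CRL4 ligase and the replication checkpoint none differed by 1.5-fold either, with Hus1 (-0.52) lowest and Cul4b (0.46) highest.

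Regulators of S phase went both ways. Of 17 E2F, RB and CDK genes 7 were higher and 10 lower, with a median of -0.06. By at least 1.5-fold 2 were higher and 2 lower, beside 6.94% and 4.80% of all genes. The list is short, and these counts were not tested. E2f2 (7.49 to 6.81) and E2f3 (8.43 to 7.77), whose proteins can activate replication genes, were 1.61-fold and 1.58-fold lower. The retinoblastoma gene Rb1 (8.05 to 8.88), a repressor of E2F targets, was 1.79-fold higher, and the repressor gene E2f7 (6.94 to 7.71) was 1.70-fold higher. Other E2F and RB family genes at the floor differed less and went both ways. Rbl2 (0.35), E2f1 (0.09) and E2f8 (0.01) were higher or near level, and E2f4 (-0.33), Rbl1 (-0.19) and E2f5 (-0.09) were lower. Mitotic genes, the other large cell cycle group, had a median of 0.18 over 30 genes, with 24 higher (80.0%, beside 51.5% of all genes). Of them 5 were at least 1.5-fold higher (6.94% of all genes were) and none lower, and Ccnf (0.79), Ndc80 (0.68), Cenpe (0.66) and Plk1 (0.65) differed most. No test of the difference between these lists and the members can be made with 1 array per time.

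**Figure D4:**
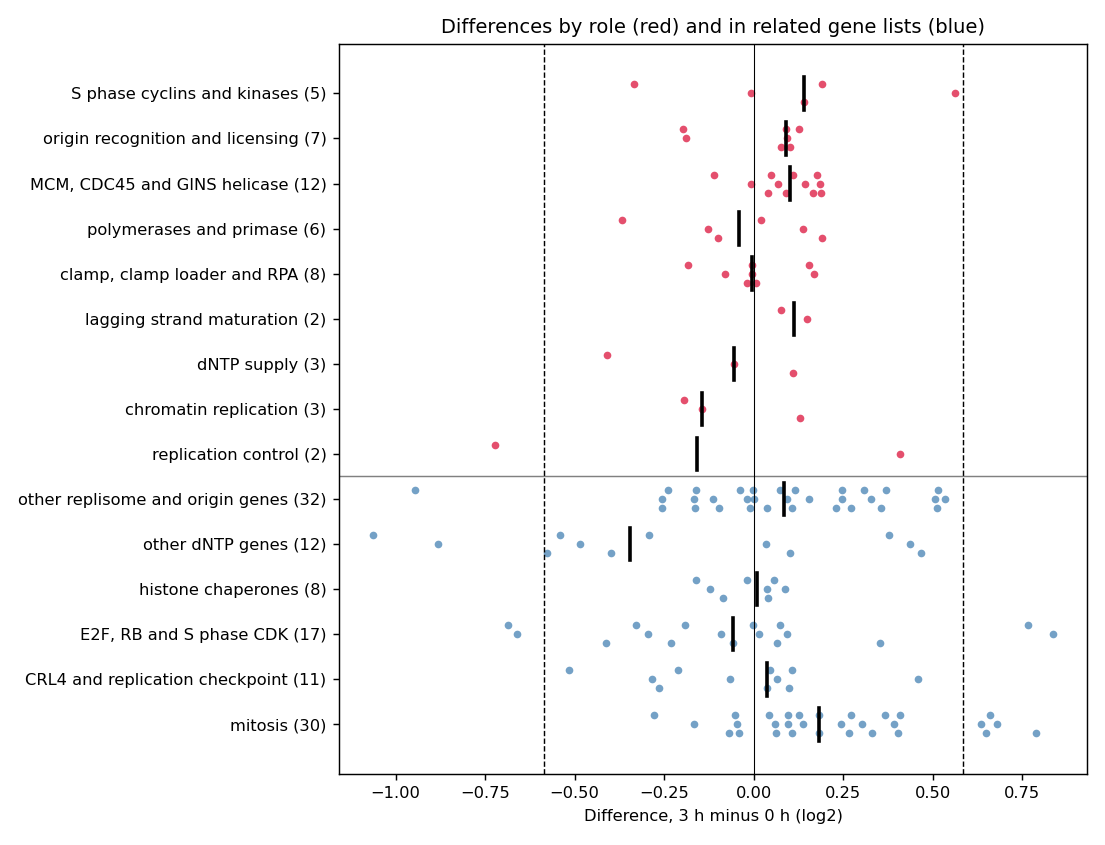
Differences (3 h minus 0 h, log2; x axis) of members by role (red) and of related lists (blue), each point a gene at or above the floor, with the number of genes in parentheses, the median as a black bar and dashed lines at 1.5-fold. Among the red points only Dtl passes a dashed line, and the median of the other dNTP genes, -0.35, lies farthest from 0.

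Either E2F form was found in 17 of 48 member promoters (35.4%), beside 5.62% of all 32851 promoters and 10.1% of the 9798 promoters of genes at or above the floor. Member promoters were also rich in G and C, with a median of 61.2% and 18 CpG, beside 52.4% and 6 for all promoters and 60.0% and 16 for those of genes at or above the floor. TTCCCGC was in 14 of 48 (29.2%), beside 3.82% of all promoters and 6.92% of those at or above the floor. TTGGCGC was in 5 (10.4%), beside 1.97% and 3.54%. CCAAT was in 28 (58.3%), beside 33.8% and 35.2%. TTTGAA, the CHR element known from mitotic promoters, was in 5 (10.4%), beside 16.0% of all and the same 10.4% of those at or above the floor. Among 29 promoters of the mitotic genes, either E2F form was in 2 (6.90%), CCAAT in 22 (75.9%) and TTTGAA in 9 (31.0%). A match is a description of these letters, not evidence of a bound site. Members with and without these letters had like medians. The 15 counted members with either E2F form had a median of 0.05, from -0.72 (Dtl) to 0.18 (Mcm5), and the 24 without had a median of 0.04, from -0.41 (Tk1) to 0.41 (Clspn).

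Markers of cell types were measured in both samples, and their part in the differences above was not tested. Of 15 erythroid progenitor genes, all counted, 6 were higher at 3 h by 1.5-fold or more and none was lower by that much. Of all genes at or above the floor 6.94% were higher and 4.80% lower by that much. The sum of the 15 on the linear scale was 1.17 times as high. The brightest were Car2 (13.24 and 13.20) and Klf1 (12.03 and 12.31), and the most different were Slc4a1 (5.47 to 8.30, below the floor at 0 h), Nfe2 (2.15-fold higher) and Gata1 (1.78-fold higher). Granulocyte markers at the floor numbered 6 of 12 at 0 h and 9 at 3 h. All 9 were higher at 3 h, 7 of them by at least 1.5-fold. S100a9 (3.85-fold), S100a8 (3.24-fold) and Camp (3.19-fold, below the floor at 0 h) differed most. The sum of the 12 was 1.92 times as high at 3 h. For 13 macrophage markers this ratio was 1.54, with 5 at the floor at both times, and the complement genes C1qa, C1qb and C1qc were below it at both. Of the 5 at the floor, 4 were higher, Lyz2 (3.55-fold) and Csf1r (2.00-fold) by the most, and Vcam1 was lower (9.22 to 8.25, 1.97-fold). For 15 hepatocyte markers, all at the floor, this ratio was 0.947, a sum led by bright genes such as Afp (14.60 and 14.53). The hepatocyte sum was 102832 at 0 h and 97426 at 3 h, beside 26477 and 30922 for the erythroid genes. Such sums do not give shares of cells. Of the 15 hepatocyte markers 13 were lower, Apob by the most (1.72-fold), while 51.5% of all genes were higher. The keratin genes Krt8 and Krt18 were 1.94-fold and 1.83-fold higher. For 7 megakaryocyte markers, 4 of them at the floor, the ratio of the sums was 1.28. Gp1bb went from 4.49 to 6.68, and Pf4 (5.67 and 5.74) and Itga2b (7.14 and 7.05) were near level. For 9 lymphoid markers this ratio was 1.43, with only Ighm and the leukocyte gene Ptprc at the floor. No marker was listed at 0. Cells of these lineages that divide also express replication genes.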

How the data were processed

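Expression was measured on 2 Affymetrix mouse arrays, with cRNA labelled from 1.5 µg of total RNA per the labels' protocols. The authors deposited log2 values made with RMA and the affy package, per the submitters' processing notes. Tool versions and the set of arrays normalized jointly are not stated in the labels. RMA forces a common distribution on the arrays, which hides any shift of all transcripts. The time in each title gave the group.

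Of 20666 probe sets 17918 were annotated to 1 gene, 79 to several and 2669 to none in the platform table. By Entrez ID 17767 matched RefSeq (GRCm38.p6), which changed 0 symbols. Probe sets of a gene were averaged (43 of 17874 genes, no member). Of the member probe sets, 5 (Mcm2, Mcm6, Mcm7, Pold1 and Rfc2) are of kinds that can match several genes. The floor was 5.70 and 1.5-fold was the threshold, and 1.2-fold was an added cut. A single array per time allows no test. An array has no read depth.

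The members and lists were chosen with earlier results of these data known. All members could be named. From each related list the named genes were up to 4 with the largest absolute difference, and from marker lists up to 3 most abundant and up to 3 most different. The C1q genes and the further E2F and RB family genes were named after their values were seen.

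Alternatives were quantile normalization of both columns, removal of a loess trend (span 0.3), the brightest probe set of a gene, probe sets without suffix, no floor, a floor of 6.70, centring and, added after the data were seen, a floor of 8. Python 3.11.15, numpy 2.4.6, pandas 2.3.3, statsmodels 0.14.6 and matplotlib 3.10.9 were used, and the steps were tested on simulated data.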

Additional observations from a re-analysis of the deposited data

How the results depend on the processing

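Over the 8 alternatives the median difference of the members ran from 0.05 (probe sets without suffix, 36 members) to 0.10 (trend removed), and no member was at least 1.5-fold higher. The count at least 1.5-fold lower was 1 under each alternative except no floor, where it was 2, because Tyms was then counted beside Dtl. With no floor the median of the dNTP supply genes was -0.23 over 4 genes, again with Tyms. With the floor at 8 the median of the chromatin genes was -0.0076 over 2 genes. Without suffixed probe sets the median of the other nucleotide supply genes was -0.23 over 6 genes, 3 higher and 3 lower. Other medians moved by less than 0.1, a bound used because no replicate spread exists, and Dtl stayed lower. Single genes of the related and marker lists were not recomputed. No paired analysis was possible because each group has 1 array. Signal near the floor limits Tyms, Gins3 and Rfc2.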

Other observations

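The groups of related genes given here were picked after their values were seen. Of the polymerase epsilon subunits, Pole (0.19), Pole2 (0.25), Pole3 (0.04) and Pole4 (0.23) were all higher at 3 h. Those of polymerase delta were not alike, with Pold2 at -0.95, Pold1 at -0.13, Pold3 at 0.07 and Pold4 at 0.27. Genes for fork protection, restart, checkpoint and origin firing went both ways. Topbp1 (0.51), Donson (0.37), Timeless (0.33) and Tipin (0.25) were higher, Atr (0.04) was near level, and Hus1 (-0.52), Chek1 (-0.29), Rad9a (-0.26), Mcm8 (-0.24) and Mtbp (-0.16) were lower. The topoisomerase gene Top2a went from 11.41 to 11.72.

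In nucleotide supply the genes that were lower include Dtymk (-0.40), which acts after both Tk1 and thymidylate synthase, and Umps (-0.49), of pyrimidine synthesis with Cad. Kinase genes of deoxynucleoside salvage went both ways, with Dck (0.38) and the mitochondrial Tk2 (0.47) higher and Tk1 (-0.41) and the mitochondrial Dguok (-0.54) lower. The dNTP hydrolase gene Samhd1 (0.44) was higher. Samhd1 is also expressed in myeloid cells. The sums of the granulocyte and macrophage markers were higher at 3 h, though Vcam1 was lower. The part of such cells in the value of Samhd1 was not tested.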
